A study of Bos taurus with 15 samples.

Results

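The genes described here encode the fatty acid desaturases and elongases SCD, SCD5, FADS1, FADS2, ELOVL1, ELOVL3, ELOVL4, ELOVL5, ELOVL6 and ELOVL7. They were chosen by symbol alone, and 9 of the 10 symbols were found among the 13896 genes listed in each of the 6 comparison tables. FADS1 was not analysed here. RNA was sequenced from subcutaneous adipose tissue of the dewlap of primiparous Prim Holstein cows, in 15 libraries that form 5 groups of 3. The first group was sampled 1 month before calving, before the diets of the experiment began. The other 4 groups were sampled at week 1 or week 16 after calving, in cows fed a low energy (LE) or a high energy (HE) diet. The study itself groups cows by severe or moderate negative energy balance (NEB), the state in which milk and maintenance take more energy than the cow eats, and took for RNA-seq 3 cows of each such group with the more extreme balance at week 1. The labels give the diet and not the NEB group of each library, so the groups are called LE and HE here. All biopsies came from fasted, sedated cows under local anaesthesia. The libraries before calving serve both diets, so the comparisons of week 1 with this time share their 3 control libraries. Calving and the start of the diets both fall between these samplings and cannot be told apart.

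Desaturases put a double bond into a fatty acid, and elongases add a pair of carbons to the chain. SCD and SCD5 make the monounsaturated oleic and palmitoleic acids from stearic and palmitic acid, FADS1 and FADS2 act on polyunsaturated chains, and each ELOVL enzyme carries out the condensing step of elongation on its own range of chain lengths. In ruminants adipose tissue is the main site of fatty acid synthesis, and SCD is one of the most abundant transcripts of bovine fat that is storing lipid.

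Counts were obtained for each gene in 2 ways, from reads on exons and from reads on the entire gene, introns included, since the ribosome-depleted total RNA holds unspliced transcripts. A normalised count is the number of reads on a gene divided by the size factor of its library, which sets all 15 libraries on one scale. The values of single libraries were recovered from the mean counts of the comparison tables, and their replicate numbers are only names, given by decreasing size factor. A gene was called when its Benjamini-Hochberg adjusted p in limma was below 0.01 on exon counts and on whole gene counts, with the same direction. Gene lengths of the authors' annotation were not used, so no level is compared between genes.

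The HE libraries stood apart from the others. Exon reads on genes numbered 2207801 to 7171953 at week 1 and 2980758 to 7658010 at week 16 in HE, against 8395757 to 14931887 in the other 3 groups. The spike-in RNAs whose counts could be recovered took 4.50% to 27.1% of the exon reads in the 6 HE libraries and 0.294% to 2.28% in the other 9. The summed normalised exon count of 9 adipocyte markers was 78079 to 86450 before calving, 93215 to 123157 in LE and 23192 to 90907 in HE at week 1, and 66169 to 72848 in LE and 15192 to 63559 in HE at week 16. ADIPOQ, the tenth marker, was not analysed here, and no adipocyte marker was at 0 throughout a group. For 8 skeletal muscle markers the sum was 1173 to 4114 in the 6 HE libraries and 85.2 to 357 in the other 9. The sum of 9 skin markers was 263 to 861 before calving, 3.13 to 276 in HE at week 1 and 1.08 to 19.6 in the other 9 libraries, and in LE at week 1 KRT14, KRT15, KRT31, KRT85 and AWAT1 were at 0. In tissue RNA, fewer cells of a type and less RNA of a gene per cell cannot be told apart. The part of depth, spike-in share, muscle and skin markers in the results on desaturases and elongases was not tested. The sample titles also carry an unexplained mark that is constant within each group, so whatever it stands for cannot be told apart from the groups.

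SCD, the delta-9 desaturase, had the widest range of the genes of the family with exon reads in every library, which leaves out ELOVL3. Its normalised exon counts had a 386-fold span over the 15 libraries. Before calving the normalised exon count of SCD was 249871, 212819 and 235257 in the 3 libraries, which is 2.502% to 3.00% of all exon reads on genes. In HE at week 1 it was 833, 1086 and 706, or 0.00870% to 0.0149% of exon reads. LE at week 1 held 648, 17387 and 2734. At week 16 the values were 17898, 2637 and 9865 in HE, and 5491, 3944 and 71897 in LE. Every library before calving was above all 12 libraries after calving, while LE at week 1 spread over a 26.9-fold range that contained all of HE at week 1.

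**Figure D1:**
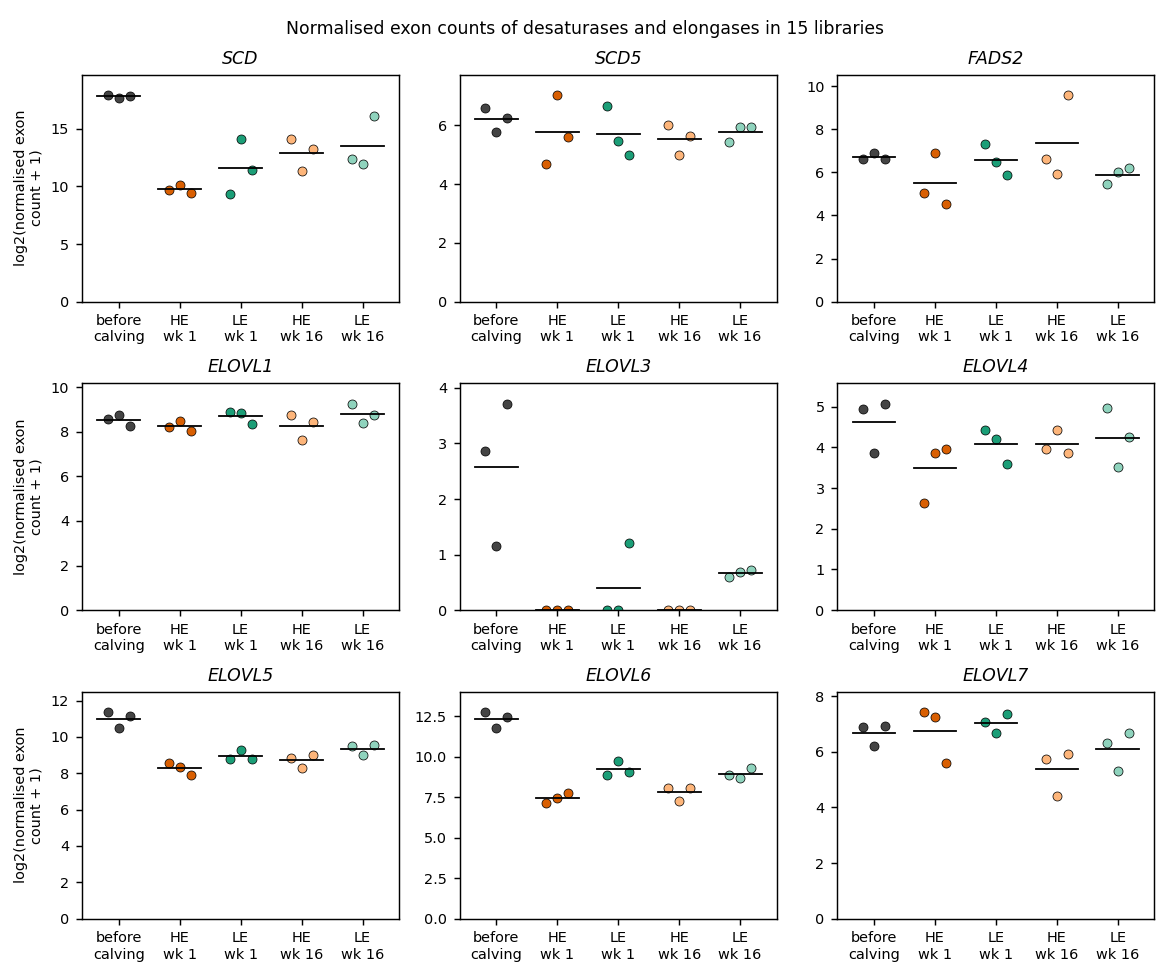
Normalised exon counts of the 9 desaturases and elongases, plotted as log2(count + 1) on a vertical axis that starts at 0 and is scaled for each gene, with 1 point for each of the 3 libraries of a group and a bar at the mean of the 3 log2 values. SCD, ELOVL5 and ELOVL6 stand higher in the 3 libraries before calving than in any of the 12 after it, whereas ELOVL1 keeps within a 3.08-fold range over all 15 libraries. The share of all genes with such an order of libraries was not counted.

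SCD5, a second delta-9 desaturase best known from brain, had 1100 exon reads over all libraries. The normalised exon count of SCD5 was 96.1, 54.4 and 74.7 before calving, 25.0, 129.7 and 47.8 in HE at week 1, and 100.5, 43.6 and 30.7 in LE at week 1. At week 16 it was 63.6, 30.8 and 48.7 in HE and 42.1, 60.0 and 60.6 in LE. All groups overlapped. The summed normalised exon count of 4 Schwann cell markers was 6969, 5012 and 3179 in the libraries with 129.7, 100.5 and 96.1 of SCD5 and 429 to 1712 in the other 12, and the part of these cells was not tested. Exons held only 5.16% to 24.8% of the reads on SCD5, and its reads outside exons reached a normalised count of 171 to 1631 in HE at week 1.

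FADS2, the delta-6 desaturase at the entry of the polyunsaturated pathway, had 1792 exon reads in all. Its normalised exon count was 98.4, 117.9 and 96.2 before calving, 32.3, 118.9 and 22.1 in HE at week 1, and 158.9, 88.4 and 57.5 in LE at week 1. Later the values were 96.8, 59.1 and 766.4 in HE and 43.6, 63.0 and 72.2 in LE. The 766.4 of replicate 3 of HE at week 16 rests on 283 exon reads and lies far above the 14 other libraries, of which the next highest held 158.9.

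ELOVL1, which elongates saturated and monounsaturated very long chains, varied least. Its normalised exon count was 305 to 429 before calving, 265 to 351 in HE and 321 to 476 in LE at week 1, and 198 to 427 in HE and 336 to 610 in LE at week 16, with overlap between all groups. ELOVL3, an elongase of brown fat, liver and sebaceous gland, was close to absent: it had 31 exon reads in the 15 libraries. Of these, 26 came from before calving, as 11, 2 and 13 reads in the 3 libraries. LE gave 2 exon reads at week 1 and 3 at week 16, and HE gave 0 at both times, which over the group allows a normalised exon count of up to 1.87 at week 1 and 1.68 at week 16. These limits cover counting error only. ELOVL3 was below the minimum mean count of 10 in every comparison and was not tested.

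ELOVL4, an elongase of very long chains in retina, skin and brain, was also low, with 340 exon reads in all. Its normalised exon count was 29.9, 13.4 and 32.7 before calving, 5.21, 13.5 and 14.7 in HE at week 1 and 20.5, 17.3 and 11.1 in LE at week 1. At week 16 it was 14.7, 20.6 and 13.5 in HE and 30.1, 10.4 and 18.1 in LE. All 5 groups overlapped.

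ELOVL5 elongates polyunsaturated chains. Its normalised exon count was 2620, 1450 and 2279 before calving (mean 2117 ± 602 SD, n = 3). In HE it was 374, 330 and 239 at week 1 (314 ± 69.0) and 464, 314 and 520 at week 16 (432 ± 107). In LE it was 446, 612 and 434 at week 1 (497 ± 99.4) and 717, 504 and 738 at week 16 (653 ± 130). The lowest library before calving was above the highest of the 12 later ones, and LE and HE did not overlap at week 1 but did at week 16.

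ELOVL6 lengthens palmitic to stearic acid, the substrate of SCD. The normalised exon count of ELOVL6 was 6882, 3488 and 5665 before calving (mean 5345 ± 1719 SD, n = 3). HE libraries held 143, 173 and 213 at week 1 (176 ± 35.3) and 266, 154 and 265 at week 16 (229 ± 64.4). LE libraries held 465, 868 and 522 at week 1 (618 ± 218) and 469, 405 and 632 at week 16 (502 ± 117). All libraries before calving were above all LE libraries, and at both times these were above all HE libraries. The share of all genes whose libraries keep such orders was not counted, for ELOVL6 as for SCD and ELOVL5.

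ELOVL7, an elongase of saturated chains, had its own order. Its normalised exon count was 118, 72.7 and 119.6 before calving, 171, 151 and 47.8 in HE at week 1, and 134, 102 and 162 in LE at week 1. At week 16 it was 52.8, 20.6 and 59.6 in HE and 78.4, 39.2 and 100.6 in LE. The week 16 values were the lowest group means on each diet, but HE at week 16 overlapped both LE at week 16 and HE at week 1.

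The first question was how the genes changed from the time before calving to week 1 of lactation. SCD and ELOVL6 were higher before calving than in HE at week 1, and both were called by limma. For SCD the log2 fold change was 8.08 (SE 0.23, adjusted p = 6.33e-08) on exon counts and 7.93 (SE 0.25, adjusted p = 6.41e-05) on whole gene counts, or 271-fold and 243-fold. For ELOVL6 it was 4.96 (SE 0.32, adjusted p = 2.64e-05) on exons, 31.2-fold, but 3.19 (SE 0.42, adjusted p = 0.00879) on whole genes, 9.11-fold. These are 2 of the 8 genes of the family tested, where 1.82% of all 10414 genes tested were called and 1.06% were called higher before calving. An unadjusted exon p below 0.05 was found for 4 of the 8 and 42.4% of all genes. ELOVL5 passed on exons, with a log2 fold change of 2.69 (SE 0.29, adjusted p = 0.000244), and missed on whole genes with 1.48 (SE 0.26, adjusted p = 0.0195). On exon counts alone 16.5% of 10522 genes passed. For FADS2 the exon log2 fold change was 1.31 (SE 0.47, adjusted p = 0.0561), or 0.85 without replicate 1 of HE, and for ELOVL7 the whole gene value was -1.22 (SE 0.37, adjusted p = 0.0897). The 8 genes had a median exon log2 fold change of 1.33, against 0.05 over all genes tested, and 7 of the 8 were positive. Leaving out any 1 of the 6 libraries ended the call of ELOVL6 on whole gene counts, where the log2 fold change was then 2.83 to 3.53 (adjusted p 0.0132 to 0.0604), while its exon adjusted p stayed between 0.000104 and 0.000249. Without replicate 2 of the libraries before calving, no gene at all was called and SCD missed at an adjusted p of 0.01002 on whole genes, with a log2 fold change of 8.14 on exons.

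In the same comparison adipocyte markers were in part lower after calving. Of 8 adipocyte markers tested, LEP, CIDEC, CIDEA and LPL were called higher before calving than in HE at week 1, and the median exon log2 fold change of the 8 was 1.63. Replicate 1 of HE at week 1 had an adipocyte marker sum of 90907, above the 3 libraries before calving, and an SCD count of 833. With only this library kept for HE at week 1, a choice made after seeing the data, the log2 fold change on exons was 8.11 for SCD and 5.15 for ELOVL6. A group of 1 library has no spread of its own, so no call is drawn from these values. The 6 skin markers tested had a median exon log2 fold change of 3.58, and none was called. The summed normalised exon count of 5 endothelium markers was 19259 to 23428 before calving, 29708 to 63273 in HE and 29467 to 36585 in LE at week 1, and that of 4 macrophage markers was 4844 to 6901, 1959 to 6859 and 7462 to 11392. No endothelium or macrophage marker was called in either comparison with the time before calving, and the part of these cells in the results was not tested.

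Against LE at week 1, the exon log2 fold change was 6.21 (SE 1.07, adjusted p = 0.0281) for SCD, 3.11 (SE 0.31, adjusted p = 0.00416) for ELOVL6 and 2.06 (SE 0.25, adjusted p = 0.00780) for ELOVL5. On whole genes the values were 6.16 (adjusted p = 0.0501), 2.52 (adjusted p = 0.0304) and 1.22 (adjusted p = 0.0643) by limma, so that 0 of 8 genes of the family were called. Of the 10598 genes tested in both countings 0.0377% were called, and 1549 (14.6%) had an unadjusted p below 0.05 on exons, 3 of them from the family. On exon counts alone 0.494% of 10729 genes passed. Replicate 2 of LE at week 1, the library with an SCD count of 17387, decided the outcome for SCD: without it the log2 fold change was 7.44 and SCD was called. Without replicate 1, at 648 the lowest library, it was 5.10. Of 8 adipocyte markers tested, CIDEA was called higher before calving, and their median exon log2 fold change was -0.02. The 4 skin markers tested here had a median exon log2 fold change of 8.52, none was called, and the part of both lists in these values was not tested. The remaining 5 genes of the family had exon log2 fold changes from -0.38 for ELOVL7 to 0.51 for ELOVL4. Both week 1 comparisons use the same libraries before calving, so their values for SCD, ELOVL5 and ELOVL6 are not independent.

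**Figure D2:**
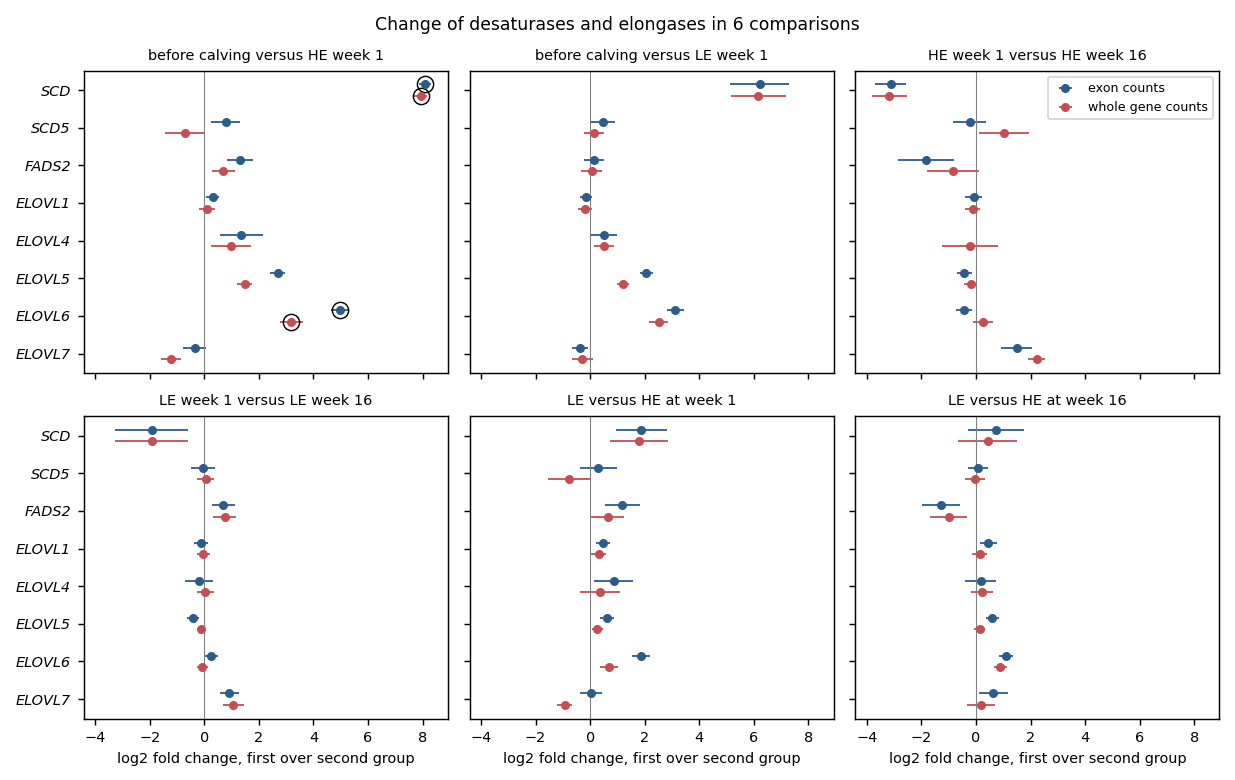
Log2 fold change of the first over the second group named in each panel, for the 8 genes tested, from exon counts (blue) and whole gene counts (red), with bars of 1 standard error and rings around calls in both countings. SCD and ELOVL6 are ringed before calving against HE at week 1 only, and the red points of ELOVL5 and ELOVL6 lie closer to 0 than the blue ones in both comparisons with the time before calving.

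The second question was the change from week 1 to week 16 on each diet. The study took biopsies from each animal at all 3 times, so libraries of different times may come from the same cows, but which do is not known here and the fits treat them as independent. In HE, the exon log2 fold change of week 1 over week 16 was -3.13 (SE 0.56, adjusted p = 0.201) for SCD and 1.49 (SE 0.57, adjusted p = 0.321) for ELOVL7, the whole gene values being -3.18 (SE 0.64, adjusted p = 0.274) and 2.23 (SE 0.31, adjusted p = 0.216). The SCD value on exons was -3.91 without replicate 2 and -2.57 without replicate 1 of week 16. Every HE library at week 16 had more SCD than every HE library at week 1, and the share of all genes with this order was not counted. None of the 7 genes tested was called by limma, as 0 of all 9802 genes were (0% called), and 2 of the 7 and 13.5% of all genes had an unadjusted exon p below 0.05. ELOVL4 fell under the minimum exon count in this comparison. The study, which tested with DESeq2, reports SCD as lower at week 1 than at week 16 in its cows with moderate NEB. The missing call in limma does not show that SCD was unchanged. In LE, the exon log2 fold change was -1.93 (SE 1.35, adjusted p = 0.742) for SCD and 0.91 (SE 0.35, adjusted p = 0.683) for ELOVL7. Single libraries moved both: the SCD value was -0.58 without replicate 3 of week 16, -0.82 without replicate 1 and -3.15 without replicate 2 of week 1, and that of ELOVL7 was 0.53 without replicate 2 of week 16. Here too 0 of 8 genes of the family and 0 of 10496 genes in all (0% called) passed in limma, and an unadjusted exon p below 0.05 was found for 1 of the 8 and 7.19% of all genes. The change from week 1 to week 16 was compared between the diets in 1 fit of the 12 libraries after calving. No gene of the family was called, nor was any of the 10341 genes (0% called), and 0 of the 8 against 4.87% of all genes had an unadjusted exon p below 0.05. FADS2 came nearest, with a difference of 2.47 on the log2 scale (SE 1.15, unadjusted p = 0.0514, adjusted p = 0.992). Its exon log2 fold change of week 1 over week 16 in HE was -1.84, or -0.98 without replicate 3 of week 16, the library with 766.4.

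The third question was how the LE and HE cows differed. At week 1 all 8 genes had positive exon log2 fold changes of LE over HE, with a median of 0.74 against 0.07 for all genes tested. On whole genes the median was 0.34 against 0.12, and SCD5 (-0.78, SE 0.77) and ELOVL7 (-0.92, SE 0.27) were negative. When single libraries were left out, the whole gene value ran from -1.96 to 0.14 for SCD5 and from -1.08 to -0.70 for ELOVL7. The median exon log2 fold change was 1.48 for 8 adipocyte markers and 1.46 for 4 macrophage markers, none of them called, and their part in these values was not tested. On exon counts ELOVL6 had the smallest adjusted p of the family, with 1.86 (SE 0.33, adjusted p = 0.0110), and on whole genes it had 0.70 (SE 0.32, adjusted p = 0.288). The exon value was 0.62 (SE 0.26, adjusted p = 0.133) for ELOVL5 and 1.88 (SE 0.94, adjusted p = 0.203) for SCD, that of SCD being 0.65 without replicate 2 and 3.01 without replicate 1 of LE. For ELOVL7 the countings went apart, with 0.03 on exons against the -0.92 on whole genes (adjusted p = 0.137). Limma called 0 of the 8 and 0 of 10368 genes (0% called), while an unadjusted exon p below 0.05 was found for 2 of the 8 and 32.3% of all genes.

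At week 16 ELOVL6 was again nearest to the threshold, with a log2 fold change of LE over HE of 1.104 on exons (SE 0.27, adjusted p = 0.0178) and 0.89 on whole genes (SE 0.25, adjusted p = 0.0495). None of the 8 genes was called by limma where 3.67% of all 10160 genes were, and 2 of the 8 against 38.5% of all genes had an unadjusted exon p below 0.05. The exon log2 fold change was 0.72 (SE 1.03, adjusted p = 0.636) for SCD, 0.60 (SE 0.23, adjusted p = 0.0939) for ELOVL5 and -1.29 (SE 0.70, adjusted p = 0.206) for FADS2, which was -0.52 without replicate 3 of HE, the library with 766.4. For SCD the direction rested on replicate 3 of LE at week 16, with its count of 71897: without it the value was -0.64. Leaving out replicate 2 of HE gave -0.090. Markers of other cells moved in this comparison too: the macrophage markers CD163 and CSF1R were called higher and the muscle marker TNNT3 lower in LE, and 4 macrophage markers summed to 10309 to 13490 in LE against 1909 to 2204 in HE. The 8 adipocyte markers tested had a median exon log2 fold change of 0.98, with 6 of the 8 positive and none called. Adipocyte sums were 66169 to 72848 in LE and 15192 to 63559 in HE. The part of all these cells in the values was not tested.

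The gap between the countings was then described gene by gene, in tests added after the values had been seen. Before calving, 68.3% to 75.3% of the reads on ELOVL5 lay on exons, against 28.6% to 36.2% in HE and 35.5% to 50.3% in LE at week 1. At week 16 the share was 36.5% to 52.0% in HE and 43.1% to 57.1% in LE. Its reads outside exons hardly differed: their normalised count was 516 to 916 before calving, 586 to 797 in HE and 633 to 718 in LE at week 1, and 530 to 818 in HE and 551 to 656 in LE at week 16. ELOVL5 thus had more exon reads before calving, while the reads outside its exons overlapped between all 5 groups.

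For ELOVL6 the exon share was 53.2% to 83.9% before calving, 15.7% to 25.8% in HE and 35.4% to 56.8% in LE at week 1, and 31.1% to 38.3% in HE and 23.8% to 44.8% in LE at week 16. The normalised count outside its exons was 729 to 4755 before calving and 421 to 971 in HE at week 1, the 729 being that of replicate 2. SCD had nearly all its reads on exons, 99.1% to 99.5% before calving and 90.1% to 96.3% in HE at week 1, and the few outside fell as well, from a normalised count of 1199 to 2204 to one of 33.2 to 76.0. Over all genes, exons took 41.7% to 55.5% of the reads before calving and 48.1% to 56.4% in HE at week 1.

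**Figure D3:**
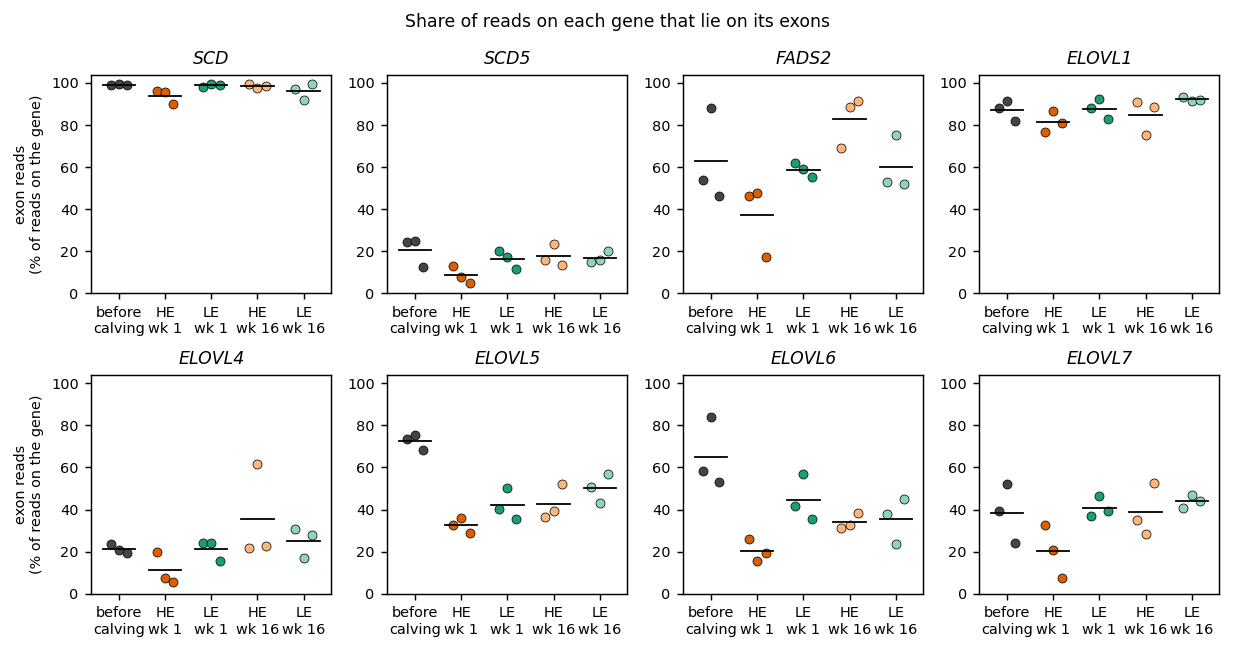
Share of the reads on each gene that lie on its exons, in percent on an axis from 0 to 100, with 1 point per library and a bar at the mean of the 3 libraries of a group, for the 8 genes with enough reads. The 3 libraries before calving lie above the 3 of HE at week 1 for SCD, ELOVL5 and ELOVL6, and SCD5 and ELOVL4 have most of their reads outside exons in nearly all libraries.

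In these 3 genes the exon share was higher in every library before calving than in every HE library at week 1, an order found in 7.41% of 9124 genes, with the opposite order in 23.3%. The ratio of exon reads to reads outside exons was higher before calving by 2.46 on the log2 scale for ELOVL5 (SE 0.36, adjusted p = 0.00217), 3.02 for ELOVL6 (SE 0.49, adjusted p = 0.00394) and 2.96 for SCD (SE 0.44, adjusted p = 0.00217) in limma, against a median of -0.24 over all genes. In this test 1.46% of 9466 genes were called and 0.465% were called higher before calving. Each of the 3 calls lost its place without replicate 2 of the libraries before calving, the adjusted p then being at most 0.0255, and only that of SCD held without replicate 2 of HE at week 1. Over the 7 alternatives the log2 difference stayed at 2.51 to 3.26 for SCD, 2.33 to 2.60 for ELOVL5 and 2.34 to 3.43 for ELOVL6. Reads outside exons alone gave a log2 fold change of 5.36 for SCD (SE 0.52, adjusted p = 0.0259), 1.85 for ELOVL6 (SE 0.78, adjusted p = 0.357) and 0.19 for ELOVL5 (SE 0.31, adjusted p = 0.839), and limma called 0 of 10779 genes on them (0% called), with 1523 (14.1%) at an unadjusted p below 0.05.

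Against LE at week 1 the log2 ratio of exon reads to reads outside exons was higher before calving by 1.87 for ELOVL5 (SE 0.28, unadjusted p = 8.01e-05, adjusted p = 0.778), and the test called 0 of 9707 genes (0% called, 175 or 1.8% at an unadjusted p below 0.05). For SCD this difference was only 0.38 (SE 0.45, unadjusted p = 0.418 in limma), and for ELOVL6 it was 1.34 (SE 0.55, unadjusted p = 0.0357). The exon share of SCD was 98.3% to 99.5% in LE at week 1 and overlapped that before calving. In HE at week 1 the SCD ratio rests on 19 to 31 reads outside exons per library. Between the diets at week 1 the ratio was higher in LE by 2.58 for SCD (SE 0.57, adjusted p = 0.0201) and by 1.68 for ELOVL6 (SE 0.39, adjusted p = 0.0220), neither called, as for all 9461 genes (0% called, 2920 or 30.9% at an unadjusted p below 0.05). For FADS2 the ratio in HE was lower at week 1 than at week 16 by 3.26 on the log2 scale (SE 0.68, adjusted p = 0.0566), where 0.0346% of genes were called. The 3 HE libraries at week 16 had 69.2% to 91.3% of their FADS2 reads on exons and those at week 1 17.1% to 47.8%, from 26 to 310 and 35 to 92 reads on the gene. Between the diets at week 16 the FADS2 ratio was lower in LE by 1.80 on the log2 scale (SE 0.56, adjusted p = 0.0294 in limma), where 8.02% of genes were called on the ratio and 0.798% on reads outside exons, with none of the family among them. ELOVL7 differed the other way, outside its exons: its normalised count there was 364 to 600 in HE at week 1, 72.4 to 308 before calving, 123 to 231 in LE at week 1 and 43.4 to 128 at week 16 on both diets. HE at week 1 thus stood above all other libraries in these reads, without passing in limma (against HE at week 16, log2 fold change 2.63, SE 0.39, adjusted p = 0.440, with 0 of 9879 genes called and 825 or 8.35% at an unadjusted p below 0.05). The share of all genes with this order was not counted, so the order is not shown to be particular to ELOVL7.

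The genes that supply or assist these enzymes were read from a list of 32, of which 26 were in the tables and 24 were tested. Before calving against HE at week 1, 5 of the 24 were called and all 5 were higher before calving, where 1.82% of all genes were called and 1.06% were called higher: THRSP, a nuclear protein tied to lipogenesis (log2 fold change on exons 5.77, SE 0.48), ACSS2, which makes acetyl-CoA from acetate (4.85, SE 0.28), FASN, the fatty acid synthase (4.10, SE 0.32), ACSL1, an acyl-CoA synthetase (2.98, SE 0.29), and ACACA, the acetyl-CoA carboxylase (2.59, SE 0.27). Their adjusted p in limma was between 1.50e-05 and 0.000202 on exons and between 0.00186 and 0.00954 on whole genes. The 24 genes had a median exon log2 fold change of 1.41, and 20 were positive. Against LE at week 1, FASN (4.98, SE 0.43) and ACACA (3.02, SE 0.24) were called, as 0.0377% of all genes were, both with an adjusted p of 0.00389 on exons and 0.00777 on whole genes by limma. These 2 genes thus passed where SCD, ELOVL5 and ELOVL6 did not, but the difference between the genes was not tested.

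FASN shows the same high libraries as SCD in part. The normalised exon count of FASN was 55671, 44061 and 50747 before calving, 1688, 3580 and 4231 in HE and 1104, 3252 and 1114 in LE at week 1, and 22502, 2000 and 10134 in HE and 1500, 2560 and 17513 in LE at week 16. Replicates 1 and 3 of HE and replicate 3 of LE, the highest at week 16, were also the highest of their groups for SCD. Between the diets at week 16, 2 of the 24 genes were called and both were lower in LE, as 2.58% of all genes were: MLXIPL, a carbohydrate-responsive transcription factor (log2 fold change -1.94, SE 0.21, adjusted p = 0.000909 on exons), and FADS3, a desaturase of sphingoid bases (-1.68, SE 0.22, adjusted p = 0.00145). The normalised exon count of FADS3 was 772, 527 and 609 in HE and 252, 177 and 170 in LE. None of the 24 was called in the other 3 comparisons or in the comparison of the changes.

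The 5 genes whose exon levels were most like those of SCD, of 8019 genes with a mean normalised count of at least 100, were ACER3, NNAT, DBI, LPL and MGST1. Their Pearson correlation of log2 values with SCD over the 15 libraries was 0.969, 0.967, 0.943, 0.941 and 0.938, and over the 12 libraries after calving it was 0.929, 0.918, 0.882, 0.853 and 0.831. ACER3 is an alkaline ceramidase, NNAT a small membrane protein, DBI the acyl-CoA binding protein, LPL the lipase that takes up fatty acids from lipoproteins, and MGST1 a microsomal glutathione transferase. ELOVL5 came 26th by this measure, FASN 43rd and ELOVL6 72nd, with 0.754, 0.690 and 0.549 over the 12 libraries. FADS2 and ELOVL1 were at 0.277 and 0.256 over the 15. The libraries before calving form a cluster of their own at the high end, points of a group share diet and time, and these values are a description without a test.

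**Figure D4:**
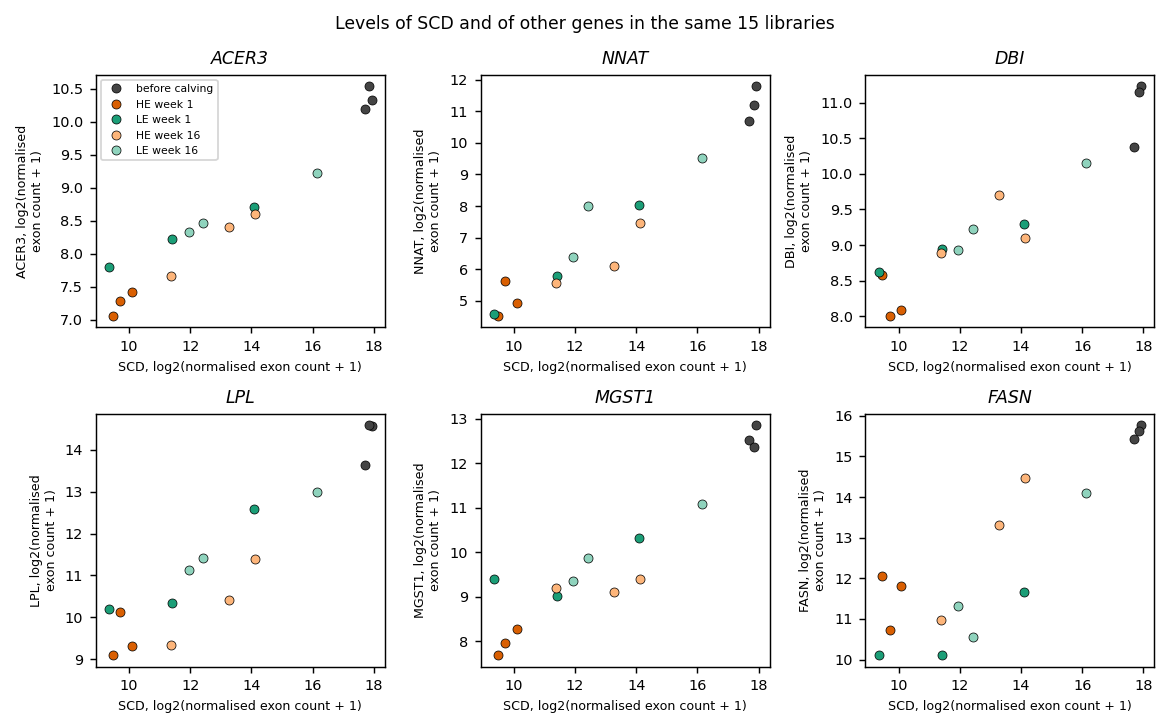
Log2(normalised exon count + 1) of SCD (horizontal axis) and of ACER3, NNAT, DBI, LPL, MGST1 and FASN (vertical axes, not from 0), with 1 point per library coloured by group. The 3 libraries before calving lie at the upper right in all 6 panels, and the 12 later libraries lie more tightly along a line for ACER3 (Pearson 0.929) than for FASN (0.690).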

How the data were processed

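RNA was prepared with the TruSeq Stranded Total RNA kit after ribosomal depletion and sequenced as single reads in 15 libraries. The authors demultiplexed with bcl2fastq 2.15.0, trimmed with Cutadapt 1.3, aligned with TopHat2 to bosTau8, counted with htseq-count on exons and on entire genes, and normalised with DESeq2. The deposited unit is the authors' mean normalized count of 6 libraries per gene, in 6 tables. The tables also hold the authors' own fold changes and p-values, which were not used, and 0 columns belong to other samples.

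Each table mixes 6 libraries, and the tables overlap in groups, so the whole read counts of single libraries were solved from the 6 means as integers (Python 3.11.15, sympy 1.14.0). A gene was accepted when the solution missed the printed means by at most 4 rounding units and the shortest step to another integer solution was at least 2 times the distance of the solution from those means. This gave 13895 of 13896 genes on exons and all on whole genes, and the size factors recomputed from the counts deviated from the recovered ones by at most 0.0328%. Exon and whole gene libraries were matched within groups by exon counts not exceeding gene counts (98.0% to 98.4% of genes, next match at most 89.4%). A library cannot be tied to a cow or sample, so p-values measure the spread between libraries.

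Each comparison of 3 with 3 libraries was fitted with voom in limma 3.58.1 (R 4.3.3) with the authors' size factors, on genes with a mean normalized count of at least 10, as differences first minus second group. The ratio test used log2 of (exon reads + 0.5) over (reads outside exons + 0.5) for genes with a mean of at least 10 of each. All p-values are two-sided and adjusted over all genes tested. The fits were also run on simulated counts in which all genes had the same spread. These runs do not tell how the fits behave on genes as variable as SCD. The 92 spike-in entries were left out of the fits. All genes of the family found are named, from the list of 32 those called in any comparison, and for SCD the 5 genes with the highest correlation. The genes, lists and tests were chosen with earlier results of these data known. No sequence or coordinate is given, as no sequence of this build was used here.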

Additional observations from a re-analysis of the deposited data

How the results depend on the processing

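The number of desaturases and elongases called before calving against HE at week 1 was 2. It was 3 on exon counts alone (1738 against 190 genes over all), at an adjusted p below 0.05 (1074 genes) and with the spread taken from all 15 libraries (1082 genes). It was 1 with library totals in place of size factors (364 genes), 1 without a filter on low counts (73 genes), 1 when replicates 2 and 3 of HE at week 1 were left out (1 gene, SCD, in a fit whose lone HE library is assumed to vary like those before calving, so that it says nothing about stability), and 0 to 1 when single libraries were left out (0 to 223 genes). Against LE at week 1 it was 0, but 1 with the spread taken from all 15 libraries (23 against 4 genes), 2 on exon counts alone (53 genes), 1 at an adjusted p below 0.05 (58 genes) and 0 to 1 over left out libraries. Between the diets at week 16 it was 0, but 1 (ELOVL6) at an adjusted p below 0.05 (1344 against 373 genes). Leaving out single libraries moved the number with a different exon ratio from 3 to 0 to 3 before calving against HE at week 1, and from 0 to 0 to 3 in HE between weeks and between diets at week 1 and 0 to 1 between diets at week 16 (FADS2, without replicate 1 of HE or replicate 2 of LE). The number called outside exons went from 0 to 0 to 3 in HE between weeks and between diets at week 1, each time through replicate 1 of HE at week 1, the deepest library of its group. The cause was not tested. Directions turned only in log2 fold changes that were not called. On whole gene counts these were ELOVL4 (0.034), ELOVL6 (-0.072) and SCD5 (0.050) in LE between weeks, ELOVL6 (0.25) and SCD5 (1.03) in HE between weeks, ELOVL7 (-0.92) and SCD5 (-0.78) between diets at week 1, SCD5 (-0.055) between diets at week 16 and SCD5 (-0.71) before calving against HE at week 1. In the difference between the diets' changes from week 1 to 16, ELOVL6 was 0.75 on exons and -0.24 on whole genes, and SCD5 0.22 and -0.76. SCD5 also turned with log2(count + 1) or log2(count + 4), to 0.22 under both in HE between weeks and to -0.045 and -0.050 between diets at week 1, and with library totals in LE between weeks (0.055). Without replicates 2 and 3 of the HE group, ELOVL7 became -0.40 between diets at week 1, and SCD -0.59 and SCD5 -0.26 between diets at week 16. Over left out libraries the log2 fold change on exons ran, in HE between weeks, from -0.37 to 0.19 for ELOVL1 and -0.75 to 0.71 for SCD5. In LE between weeks it ran from -0.33 to 0.11 for ELOVL1, -0.58 to 0.21 for ELOVL4, -0.018 to 0.43 for ELOVL6 and -0.54 to 0.31 for SCD5. Between diets it ran at week 1 from -0.33 to 0.53 for ELOVL7 and -0.65 to 0.81 for SCD5, and at week 16 from -0.24 to 0.56 for ELOVL4, -0.64 to 1.52 for SCD and -0.15 to 0.42 for SCD5. Before calving it ran from -0.71 to 0.13 for ELOVL7 and -0.19 to 1.27 for SCD5 against HE, and -0.19 to 0.54 for FADS2 against LE. No paired analysis was possible because the recovered libraries carry no replicate number of the labels. The planned estimate from group means was not run because single libraries were recovered. Leaving out replicates 2 and 3 of an HE group, the reads outside exons and the exon ratio were chosen after seeing the data. Few exon reads fell on ELOVL3, ELOVL4 and SCD5 in the HE libraries and on FADS2 in HE at week 1. This may limit what could be detected there, which was not tested.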
